A study of Mus musculus with 8 samples.

Results

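The suppressors of cytokine signalling and their partners at the leptin receptor were followed in the hypothalamus of diabetic mice. The 9 genes are Socs1, Socs2, Socs3 and Cish, the phosphatase genes Ptpn1 and Ptpn2, the kinase gene Jak2, the adaptor gene Sh2b1 and the STAT inhibitor gene Pias3. All probes of the raw table that carry one of these symbols in the platform's probe table were taken, which gave 14 of the 25697 probes, for 9 of 16593 genes. Of these, 12 probes of 8 genes were detected on at least 2 arrays and entered the tests, and the Ptpn2 probe and 1 of 3 Jak2 probes were detected on 0 of 8 arrays.

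RNA came from hypothalamic blocks of male mice aged 12 to 15 weeks, of a strain given only as mixed, and each of 8 samples was hybridised to an Illumina bead array. The saline group (replicates 4 and 5) served as the control. The STZ group (replicates 1, 2 and 3) received intraperitoneal streptozotocin, a toxin that destroys the insulin-producing beta cells and so causes type 1 diabetes. The group called STZ with leptin (replicates 6, 7 and 8) received streptozotocin and a continuous infusion of the hormone leptin, which the series describes as central, into the brain. The labels name no transgene and give no dose or duration, and do not say whether the saline and STZ mice received a vehicle infusion. Nothing in them states that the arrays come from different animals, and the p-values therefore cover the variation among these arrays, which may be technical. One label is irregular: the descriptions of STZ replicates 1 and 3 both bear the number 1 and those of the saline replicates the numbers 2 and 3, although title and source name place each array in the group used here. Whether labels were exchanged was not tested, and the Socs3 results are also given without STZ replicate 3. In such tissue RNA, fewer cells of a type and less RNA per cell cannot be told apart.

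Leptin, made by fat cells, binds a receptor that has no enzyme activity of its own and relies on the bound tyrosine kinase JAK2. JAK2 phosphorylates the receptor, the transcription factor STAT3 is recruited and activated there, and STAT3 switches on Socs3, whose product binds the receptor and JAK2 and closes a negative feedback loop. Many cytokines, among them those of the interleukin-6 and interferon families, use the same kinases and induce SOCS genes as well, so Socs3 is a target of cytokine and of leptin signals in the hypothalamus. The protein tyrosine phosphatases encoded by Ptpn1 (PTP1B) and Ptpn2 (TCPTP) remove phosphate from JAKs and STATs, SH2B1 enhances JAK2 activity, and PIAS3 inhibits DNA binding by STAT3.

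Promoters of 7 of the 9 members were in the table used here, and those of Socs2 and Ptpn2 were not analysed here. The 3 that held a match to a STAT or interferon motif are printed because they show how Socs3, Cish and Socs1 differ in the letters such factors are known to bind. Sequences are those of RefSeq on mouse build GRCm38.p6, 5′ to 3′ on the strand of the gene, each 300 bases long with the transcription start at base 251. Capitals mark the matches to TTCNNNGAA, the motif of STAT dimers, and to the interferon response motif, GAAA followed by 2 bases of any kind and GAAA, both searched on both strands.
Socs3, chr11:117969317-117969616, minus strand: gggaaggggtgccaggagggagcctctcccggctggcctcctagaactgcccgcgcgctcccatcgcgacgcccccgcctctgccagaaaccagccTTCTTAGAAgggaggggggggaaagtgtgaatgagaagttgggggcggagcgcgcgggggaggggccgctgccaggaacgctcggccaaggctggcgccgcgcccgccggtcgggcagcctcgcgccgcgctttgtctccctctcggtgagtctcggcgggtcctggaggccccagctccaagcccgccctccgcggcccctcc
Cish, chr9:107296409-107296708, plus strand: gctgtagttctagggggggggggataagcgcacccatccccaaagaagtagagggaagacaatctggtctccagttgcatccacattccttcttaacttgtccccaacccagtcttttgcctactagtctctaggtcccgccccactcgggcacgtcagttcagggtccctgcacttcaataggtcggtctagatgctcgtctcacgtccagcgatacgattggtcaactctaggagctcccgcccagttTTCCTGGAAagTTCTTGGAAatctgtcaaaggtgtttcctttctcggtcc
Socs1, chr16:10785487-10785786, minus strand: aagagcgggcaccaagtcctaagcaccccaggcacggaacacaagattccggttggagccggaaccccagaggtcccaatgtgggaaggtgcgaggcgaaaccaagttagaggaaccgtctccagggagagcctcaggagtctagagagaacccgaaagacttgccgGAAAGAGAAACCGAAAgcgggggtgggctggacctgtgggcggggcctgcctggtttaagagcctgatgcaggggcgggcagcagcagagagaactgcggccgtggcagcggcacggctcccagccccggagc

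The Socs3 promoter held 1 STAT match, TTCTTAGAA, at -154 to -146 from the start site. The Cish promoter held 2, TTCCTGGAA at 1 to 9 and TTCTTGGAA at 12 to 20, just inside the transcript. The Socs1 promoter held no STAT match and 2 interferon matches that overlap each other, at -83 to -74 and -77 to -68. No STAT or interferon match was found in the windows of Ptpn1, Jak2, Sh2b1 (2 start sites) and Pias3 (2 start sites). For Socs3, Ptpn1 and Sh2b1 the annotated gene begins further upstream, outside these windows (Socs3 at 117970336), so the start sites used are inner ones. Sequence before those outer starts was not searched. Of 32851 promoters of the same length, 8.30% held the STAT motif and 3.44% the interferon motif. The looser NF-kB motif, GGG and CC with 5 bases of any kind between them, was searched in the same way and overlapped no STAT or interferon match. It was in 50.8% of all promoters and in at least 1 window of each of the 7 members matched. A match describes letters in this window and not a bound site.

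Between 13608 and 14776 probes were detected per array, and median raw intensities lay between 117.2 and 127.5. Peptide genes of the hypothalamus, such as Pmch, Hcrt, Avp, Oxt and Trh, were measured (12 of the 14 region markers with a probe were kept, not Crh and Nr5a1). STZ replicate 1 stood apart from the other 2 STZ arrays (correlation 0.9688 with replicate 2 and 0.9791 with replicate 3), which correlated at 0.9885 with each other. Its correlation with saline replicate 4 (0.9705) and leptin replicate 8 (0.9724) was higher than that with STZ replicate 2. STZ replicate 2 had a summed level of 5 pituitary markers of 76910 on the linear normalized scale, against 215.8 and 458.5 on the other STZ arrays and 214.2 to 1073 elsewhere, with growth hormone (Gh) at 14.98 and prolactin (Prl) at 14.93 (log2). Choroid plexus markers (6 tested, 0 passed in any comparison) summed to 1784 in STZ replicate 1, 31960 and 32080 in STZ replicates 2 and 3, 15150 to 31400 in saline and 1948 to 5225 with leptin. Of the 12 hypothalamus markers 4 passed as higher with leptin than in STZ (Gal by 1.41, Cartpt by 1.28, Hcrt by 1.2 and Pmch by 0.88, limma adjusted p between 0.0135 and 0.0454). Their sums were 28010 to 35490 in saline, 24730 to 36260 in STZ and 36380 to 49930 with leptin. The part of these differences between arrays in the results below was not tested. Results that depend on STZ replicate 1 or 2 are given below without it.

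Socs3 was the member with the widest range across the groups. Its raw intensity (probe ILMN_2618176) was 167.6 and 178 in the saline replicates, 945.2, 2308.5 and 1605.9 in the STZ replicates, and 448.2, 453.3 and 438.1 in the STZ with leptin replicates. After background correction and normalization its log2 signal was 6.59 and 6.74 in saline, 9.68, 11.08 and 10.64 in STZ, and 8.68, 8.62 and 8.43 in STZ with leptin. Every STZ array lay above every leptin array, and every leptin array above both saline arrays. The spread was widest in STZ, with a mean of 10.47 ± 0.72 (SD, n = 3), against 8.58 ± 0.13 (SD, n = 3) in STZ with leptin and 6.66 ± 0.11 (SD, n = 2) in saline.

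**Figure D1:**
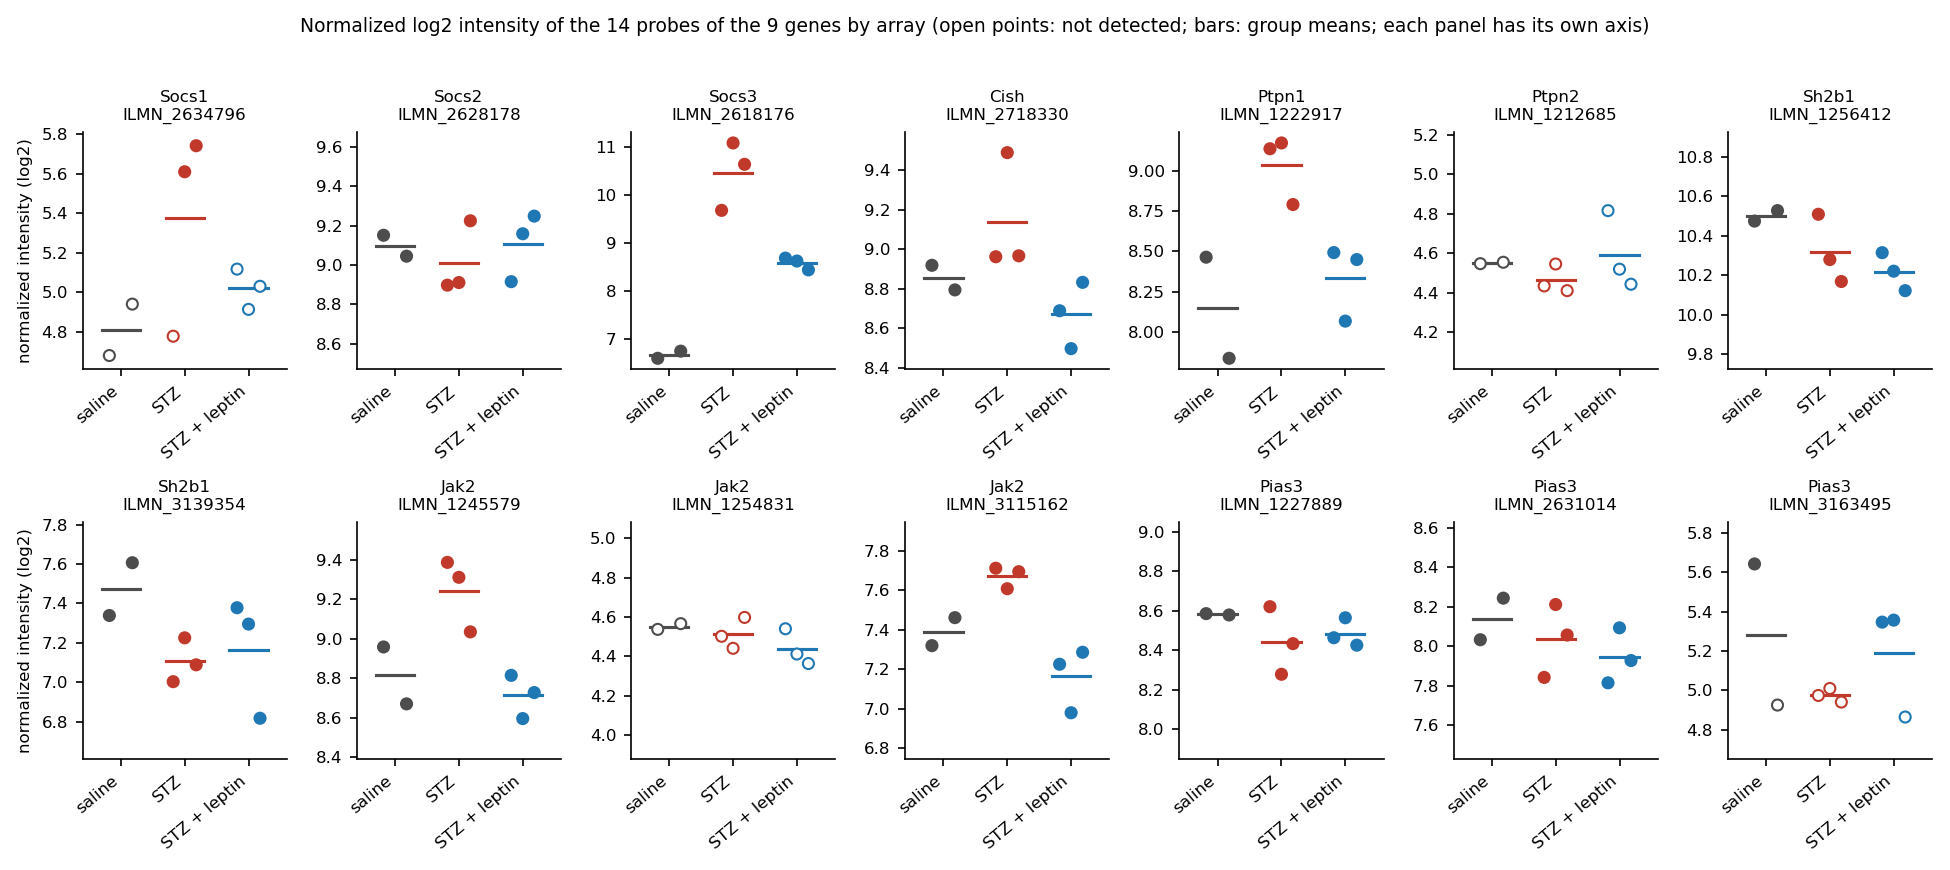
Normalized log2 signal (vertical axis) of all 14 member probes in each array, by group (saline, STZ, STZ with leptin), with points for single arrays (open where not detected) and bars for group means; each panel has its own axis. The Socs3 panel shows 3 separated groups, from 6.59 and 6.74 in saline to between 9.68 and 11.08 in STZ, while the other detected probes differ less between groups.

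Socs3 was 14-fold higher in STZ than in saline, a log2 difference of 3.80 ± 0.34 (SE, 95% interval 3.03 to 4.57, limma adjusted p = 0.000255). It passed the adjusted p threshold of 0.05 under all 20 alternative settings, with differences between 3.08 and 4.22. With leptin it fell by 1.89 ± 0.30 on the log2 scale relative to STZ (95% interval -2.58 to -1.20, limma adjusted p = 0.00790), again under all 20 settings. Without STZ replicate 3 these differences were 3.72 (limma adjusted p = 0.00311) and -1.80 (limma adjusted p = 0.0448). It remained above saline in the leptin group by 1.91 ± 0.34 (95% interval 1.14 to 2.68, limma adjusted p = 0.0221), a 3.77-fold difference. That last call was lost when either saline array was left out (log2 difference 1.84 without replicate 4, limma adjusted p = 0.217, and 1.98 without replicate 5, limma adjusted p = 0.158). It was also lost without STZ replicate 3 (1.92, limma adjusted p = 0.0515) and without leptin replicate 6 or 7 (1.86 and 1.89, limma adjusted p = 0.0746 and 0.0584). The 3 comparisons share arrays, so an unusual STZ array would shift both differences that involve STZ. Without STZ replicate 1, the lowest STZ array for Socs3, they were 4.22 and -2.29. Without STZ replicate 2, the highest, they were 3.51 and -1.58.

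Microglia and macrophage markers moved in the same groups as Socs3. Of 10 tested, 5 passed as higher in STZ (Aif1, C1qa, C1qb, C1qc and Tmem119), and the summed level of all 10 on the linear scale was 4034 to 4379 in saline, 12710 to 17530 in STZ and 9412 to 10880 with leptin. With leptin 3 passed as lower than in STZ (P2ry12, Tmem119 and C1qc), and against saline 4 passed as higher and 1 as lower. All 10 but Itgam were detected on all 8 arrays. The part of these cells in the values of Socs3 and of the other genes described here was not tested. Of 7 astrocyte markers, 1 passed as higher in STZ (Gfap, by 1.64, limma adjusted p = 0.0214). With leptin Gfap, which is also among the STAT3 targets below, passed as lower than in STZ (-1.32, limma adjusted p = 0.0309) and S100b as higher (0.89, limma adjusted p = 0.0433). The summed level of all 7 was 27780 to 29100 in saline, 31500 to 33370 in STZ and 29790 to 33060 with leptin.

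Of the 12 member probes tested, Socs3 was the 1 that passed in STZ against saline, in the upward direction. Over all probes tested, 4.29% passed in that comparison (3.98% as higher and 0.310% as lower), so a count of 1 (8.33%) is near the background. Without STZ replicate 1 the count was 2, since Socs1, whose probe was kept only through the other 2 STZ arrays, passed as well. In STZ with leptin against STZ, Socs3 was again the 1 member probe that passed, downward, where 5.62% of all probes passed (2.16% as higher and 3.45% as lower). In STZ with leptin against saline it was the 1 that passed, upward, where 2.03% of all probes passed (1.62% as higher and 0.407% as lower). Without STZ replicate 1 the count for leptin against STZ was 2, with Socs1 passing as well, and the loss of the count for leptin against saline is given above.

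Socs1 encodes a close relative of SOCS3 that is best known for restraining interferon signals. Its probe (ILMN_2634796) was dim: log2 signals were 4.68 and 4.94 in saline, 4.78, 5.61 and 5.74 in STZ, and 5.12, 4.91 and 5.03 in STZ with leptin, and it was detected on STZ replicates 2 and 3 only. The mean of STZ was at least 1.14-fold above saline, taking the lowest detected signal of each saline array as its limit (limma adjusted p = 0.388). STZ replicate 1 lay with the saline arrays. Without that array STZ was at least 1.39-fold above saline (limma adjusted p = 0.0133) and at least 1.38-fold above leptin (limma adjusted p = 0.0286). The probe was kept only through the 2 STZ arrays that then remained, where it was brightest, so these p-values give no separate support. STZ replicates 2 and 3 also had the highest summed levels of 7 blood leukocyte markers, 9609 and 4134 on the linear scale, against 1782 in STZ replicate 1, 1579 to 1650 in saline and 1874 to 2503 with leptin. Of those markers 1 passed (Cd3e, higher in STZ), and Ptprc, Cd4, Cd8a, Ms4a1 and Ccr2 were not kept. The part of these cells in the Socs1 values was not tested.

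Cish and Socs2 are the family members best known as STAT5 targets and as brakes on growth hormone and related receptors. Cish (ILMN_2718330) measured 8.92 and 8.79 in saline, 8.96, 9.49 and 8.97 in STZ, and 8.69, 8.50 and 8.83 in STZ with leptin. Every STZ array was above every array of the other groups, but neither difference passed. Cish differed by 0.28 ± 0.20 between STZ and saline (95% interval -0.16 to 0.73, limma adjusted p = 0.582), and by -0.47 ± 0.18 between leptin and STZ (95% interval -0.86 to -0.07, limma adjusted p = 0.180). Its highest value, 9.49, was in STZ replicate 2, the array with the pituitary signal. Without that array the differences were 0.11 and -0.29 (limma adjusted p = 0.867 and 0.347).

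Socs2 (ILMN_2628178) signals were 9.15 and 9.04 in saline, 8.90, 8.91 and 9.22 in STZ, and 8.92, 9.16 and 9.25 with leptin. The 3 groups overlapped. The log2 difference between STZ and saline was -0.09 (95% interval -0.46 to 0.29, limma adjusted p = 0.867). With leptin it differed from STZ by 0.10 (95% interval -0.24 to 0.43, limma adjusted p = 0.785).

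Ptpn1 (ILMN_1222917), the gene of the phosphatase PTP1B that acts on JAK2, had the next largest difference between STZ and saline. Its log2 signal was 8.46 and 7.83 in saline, 9.14, 9.18 and 8.79 in STZ, and 8.49, 8.07 and 8.45 in STZ with leptin. All STZ arrays lay above all others, and the saline and leptin arrays overlapped. The difference between STZ and saline was 0.89 ± 0.23 (95% interval 0.37 to 1.40), with an unadjusted p of 0.00381 and a limma adjusted p of 0.0759 that missed the threshold. Leptin against STZ gave -0.70 ± 0.20 (95% interval -1.16 to -0.24, limma adjusted p = 0.0931), and leptin against saline 0.19 (limma adjusted p = 0.825). The Ptpn2 probe (ILMN_1212685) was not detected on any array, with signals of 4.55 and 4.56 in saline, 4.44, 4.55 and 4.41 in STZ, and 4.82, 4.52 and 4.44 with leptin, so no difference was tested.

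Jak2 encodes the kinase that starts the signal at the leptin receptor. Its brighter probe (ILMN_1245579) read 8.96 and 8.67 in saline, 9.39, 9.31 and 9.04 in STZ, and 8.81, 8.60 and 8.73 with leptin. The dimmer probe (ILMN_3115162) read 7.32 and 7.46 in saline, 7.71, 7.61 and 7.69 in STZ, and 7.23, 6.98 and 7.29 with leptin. On both probes the STZ arrays were the 3 highest, and the probes followed each other over the 8 arrays (Pearson r = 0.798, a description). Between leptin and STZ they differed by -0.53 ± 0.15 (limma adjusted p = 0.0802) and -0.51 ± 0.13 (limma adjusted p = 0.0607), just above the threshold. Between STZ and saline they differed by 0.43 ± 0.17 and 0.28 ± 0.15 (limma adjusted p = 0.268 and 0.438).

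Sh2b1, which encodes an adaptor that promotes JAK2 activity, was measured by 2 probes. The brighter (ILMN_1256412) read 10.47 and 10.53 in saline, 10.51, 10.28 and 10.17 in STZ, and 10.31, 10.22 and 10.12 with leptin. The other (ILMN_3139354) read 7.34 and 7.61, then 7.0, 7.23 and 7.09, then 7.38, 7.30 and 6.82. On the second probe both saline arrays were above all STZ arrays, but its difference of -0.37 had a 95% interval from -0.81 to 0.07 (limma adjusted p = 0.447), and the brighter probe gave -0.18 (95% interval -0.52 to 0.16).

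Pias3 had 3 probes that did not move together (pairwise r between -0.22 and 0.33 over the 8 arrays). The brightest (ILMN_1227889) read 8.58 and 8.58 in saline, 8.62, 8.28 and 8.43 in STZ, and 8.46, 8.56 and 8.42 with leptin. Its log2 difference between STZ and saline was -0.14 (limma adjusted p = 0.739), and the second probe gave -0.10. The second probe (ILMN_2631014) read 8.03 and 8.24 in saline, 7.84, 8.21 and 8.06 in STZ, and 7.81, 8.09 and 7.93 with leptin, and the groups overlapped. The third (ILMN_3163495) was detected on 3 arrays, saline replicate 4 and leptin replicates 6 and 7, and was not detected on any STZ array. The saline mean was at least 1.15-fold above the STZ mean on it (limma adjusted p = 0.617), through saline replicate 4 alone (5.64). Saline replicate 5 (4.93) lay below the STZ arrays (4.97, 5.01 and 4.94). Without saline replicate 4 the log2 difference between STZ and saline was 0.050, the other direction.

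**Figure D2:**
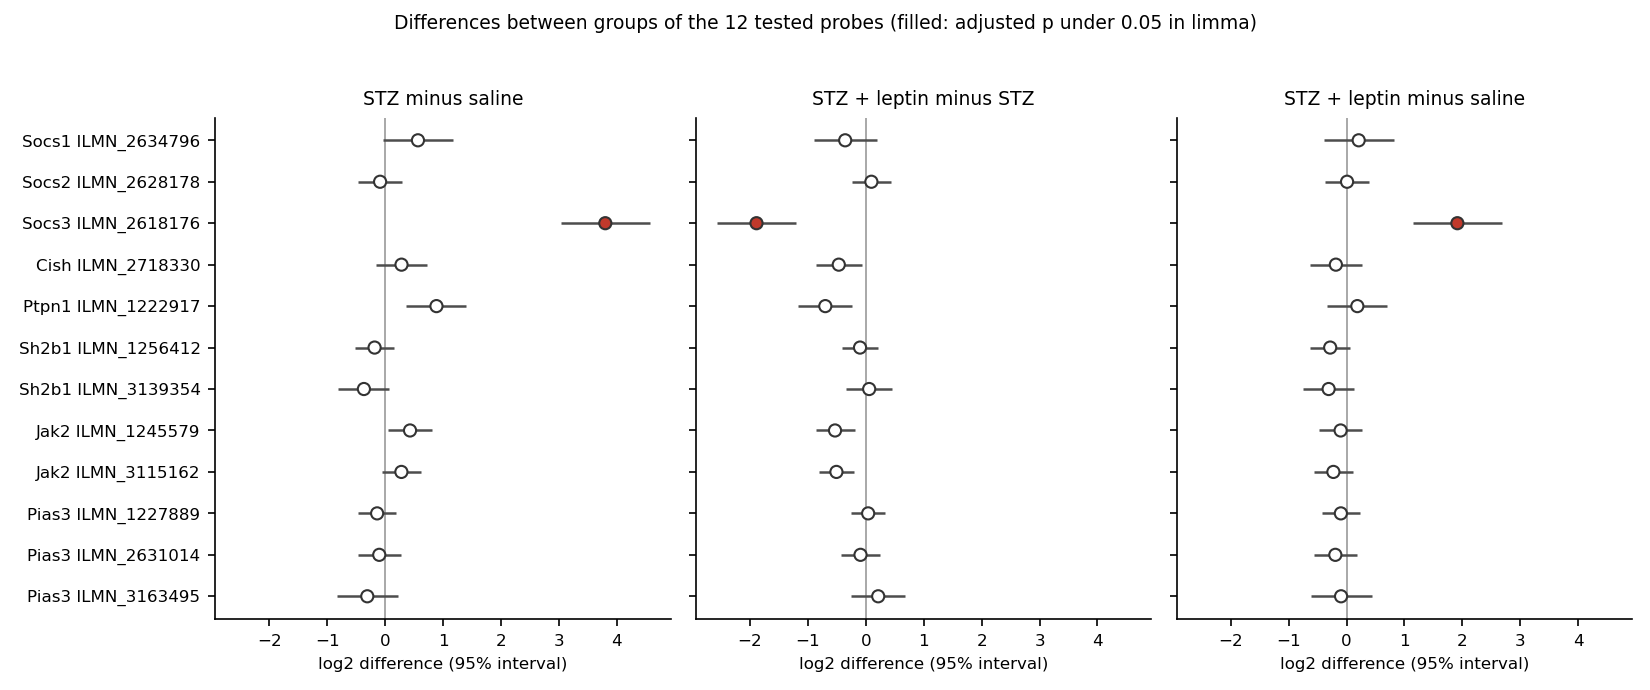
Log2 differences (horizontal axis) of the 12 tested member probes in the 3 comparisons, with 95% intervals as lines and filled points where the limma adjusted p was under 0.05. Socs1 and the third Pias3 probe were not detected in at least 1 whole group, so their plotted differences are fitted values and not measured sizes. The Socs3 intervals lie far from 0 in all comparisons (3.03 to 4.57 for STZ against saline), and those of Ptpn1 and Jak2 are the next farthest for leptin against STZ.

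Counted without a test, the groups of STZ and saline did not overlap for 5 member probes that were higher in STZ (Socs3, Cish, Ptpn1 and both Jak2 probes, 41.7%), against 12.0% of all probes. They did not overlap for 1 that was lower (Sh2b1), against 19.5% of all probes. Between leptin and STZ the same 5 were lower (41.7%, against 11.1% of all probes) and 0 were higher (against 12.0%). These counts share the STZ arrays. Between leptin and saline, 1 probe was higher and 3 were lower without overlap, against 13.9% and 20.2% of all probes. The median log2 difference of the 12 probes was 0.10 for STZ against saline (all probes -0.09), -0.23 for leptin against STZ (all probes 0.03) and -0.10 for leptin against saline (all probes -0.04). At an unadjusted p under 0.05 the members numbered 3 of 12 for STZ against saline (25%, against 14.4% of all probes), 5 for leptin against STZ (41.7%, against 19.4%) and 1 for leptin against saline (8.33%, against 11.9%).

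The other genes of the pathway were read from 9 lists, 1 probe per gene, where 4.34% of all genes passed as higher and 0.271% as lower in STZ against saline. The lists were chosen with earlier results of these data known, so their counts beside all genes are a description. With leptin against STZ, 2.05% passed as higher and 3.70% as lower. Of the 7 other SOCS, PIAS and SH2B genes tested 0 passed in any comparison (with array weights Socs6 passed as lower in leptin against saline, -0.65, limma adjusted p = 0.0321). The lowest p for STZ against saline among them were those of Sh2b2 and Socs4, neither detected in saline. Sh2b2 was at least 1.16-fold higher in STZ (limma adjusted p = 0.270), and for Socs4 the STZ mean gave no bound above 1 (limma adjusted p = 0.431).

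Among 6 STAT factor genes tested, Irf9 counted with them, 4 rose in STZ. Irf9, a transcription factor gene of the interferon response, was at 7.63 and 7.44 in saline, 9.80, 9.67 and 9.44 in STZ, and 8.39, 8.26 and 8.36 with leptin. It rose by 2.10 ± 0.15 (limma adjusted p = 0.000112) in STZ and fell by 1.30 ± 0.14 with leptin (limma adjusted p = 0.000963). Stat3, the factor that leptin activates, was at 9.05 and 8.84 in saline, 10.02, 10.36 and 9.69 in STZ, and 9.38, 9.01 and 9.50 with leptin, with a rise of 1.08 ± 0.22 in STZ (limma adjusted p = 0.0284). Stat2 rose by 1.25 ± 0.23 (limma adjusted p = 0.0167), and Stat4, not detected in saline, was at least 1.52-fold higher (limma adjusted p = 0.0286). With leptin Irf9, Stat2 (-1.14) and Stat4 passed as lower than in STZ, and Stat3 differed by -0.72 (limma adjusted p = 0.0764). The fall of Stat4 kept its call in 3 of 18 alternatives. The count of 4 fell to 1 (Irf9) without either saline replicate, and to 2 without STZ replicate 2 or without STZ replicate 3.

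Of 9 other phosphatase genes tested, 1 passed in each comparison. That was Ptpn6, whose product SHP-1 is a phosphatase found mainly in blood-derived cells: it was at 6.45 and 6.86 in saline, 9.42, 9.72 and 9.52 in STZ, and 8.74, 8.08 and 8.53 with leptin. It rose by 2.90 ± 0.22 in STZ (limma adjusted p = 0.000127) and fell by 1.11 ± 0.20 with leptin (limma adjusted p = 0.0127), and the groups did not overlap. The count for STZ against saline was 2 without STZ replicate 1, and the fall had a limma adjusted p of 0.0505 without STZ replicate 2 and 0.0523 without replicate 3. Of 9 other kinases and adaptors, 0 passed in STZ against saline (2, Jak3 and Tyk2, with array weights, and Jak3 with cyclic loess or without leptin replicate 7), and Jak3 (-0.81, limma adjusted p = 0.0328) and Tyk2 (-0.56, limma adjusted p = 0.0279) fell with leptin, kinases that serve cytokine receptors. Neither passed without STZ replicate 2 or 3, without either saline replicate, or without leptin replicate 6 or 7.

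Among 10 ligand genes tested 0 passed in any comparison. Osm and Ifng, which encode the cytokines oncostatin M and interferon gamma, had the lowest p for STZ against saline and were detected on all 3 STZ arrays and neither saline array. Osm was at least 2.38-fold higher in STZ (limma adjusted p = 0.0598) and Ifng at least 1.99-fold (limma adjusted p = 0.112). Without STZ replicate 1 both passed, at least 3.14-fold (limma adjusted p = 0.00185) and at least 2.46-fold (limma adjusted p = 0.0285), and both passed as lower with leptin than in STZ (limma adjusted p = 0.00278 and 0.0391). Leaving it out raised the STZ mean from 6.445 to 6.83 for Osm and from 6.19 to 6.47 for Ifng. Array weights gave these calls as well, and a robust trend that of Osm for leptin against STZ (limma adjusted p = 0.0491). No other array left out gave any of them. Outside STZ, Osm was detected only on leptin replicate 8. Its probe was thus kept only through the STZ arrays, where it was brightest, so its p-values give no separate support. Without leptin replicate 7, Il10 passed as higher in leptin against saline (limma adjusted p = 0.00684). Il6, Lif, Cntf, Ifnb1, Epo and Csf2 were detected on at most 1 array. Of 15 receptor genes tested, 5 rose in STZ, among them Il10ra (1.84 ± 0.19, limma adjusted p = 0.000523), Osmr (1.66 ± 0.39, limma adjusted p = 0.0468), Il10rb (0.84, limma adjusted p = 0.0320) and Csf2rb2, which was at least 1.52-fold higher (limma adjusted p = 0.0255). Without saline replicate 4 or 5 the count was 1, without STZ replicate 3 it was 2, and without STZ replicate 2 or leptin replicate 6 it was 3. Osmr kept its call in 4 of 18 alternatives. The Lepr probe, for the leptin receptor itself, was detected on 0 of 8 arrays.

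Il6st, the gene of the shared interleukin-6 family receptor gp130, took another course from these. It was at 5.30 and 4.99 in saline, 5.49, 5.72 and 5.11 in STZ, and 8.29, 8.10 and 7.92 with leptin. The leptin arrays were 2.66 ± 0.19 above STZ on the log2 scale (limma adjusted p = 8.53e-05), and the saline and STZ arrays overlapped. The probe was detected on 1 of 2 saline and all 3 STZ arrays, there near the lowest detected signals of the arrays, and its difference of leptin from STZ was 1.56 with no background correction or with the authors' values, where it also passed. Il10ra (-1.13), Csf2rb2 (limma adjusted p = 0.0255) and Csf2ra (-0.61) fell with leptin, a count of 3 that became 1 without STZ replicate 3 or leptin replicate 7, and 6 without STZ replicate 1.

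Known STAT3 target genes outside the family moved with Socs3: 10 of 18 tested rose in STZ, 0 fell, and the median log2 difference was 1.57 (all genes -0.08), or 1.30 with genes undetected in a group at their bound. The secreted iron-binding protein gene Lcn2 was not detected in saline and was at least 345-fold higher in STZ (limma adjusted p = 0.000166). That bound was 113-fold with the authors' values, 114-fold with no background correction, 140-fold with normexp and 614-fold without STZ replicate 1, and the call held in all 18 alternatives. The protease inhibitor gene Timp1 rose by 4.59 ± 0.72 (limma adjusted p = 0.00622), the adhesion molecule gene Icam1 by 3.38 ± 0.36 (limma adjusted p = 0.000658) and the transcription factor gene Cebpb by 2.05 ± 0.33 (limma adjusted p = 0.00786). The Timp1 call held in 14 of 18 alternatives (differences from 3.26 to 5.43), that of Icam1 in all 19 and that of Cebpb in 17 of 19. With leptin 6 of 18 fell, among them Icam1 (-1.84), Vim (-1.57), Cebpb (-1.47) and Atf3 (-1.36), and the median was -1.09. The count of 10 was 2 without saline replicate 4 and 3 without replicate 5, and the count of 6 was 1 without STZ replicate 3, 3 without leptin replicate 6, 2 with the replicate block and 10 with array weights. Many of these genes also respond to NF-kB and other factors. The list was chosen with earlier results of these data known, so its counts and medians are no test of STAT3 activity. Of 6 targets of growth hormone and STAT5, 0 passed in any comparison, with a median of -0.10 for STZ against saline, and Cdkn1a, a cell cycle inhibitor gene, had the lowest p (1.21, limma adjusted p = 0.0923, and 1.55, limma adjusted p = 0.00685, without STZ replicate 1). Of 5 partners in the ubiquitin ligase that SOCS proteins join, or in its turnover, 0 passed.

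Against saline, where 1.70% of all genes passed as higher and 0.402% as lower, 1 gene each of 4 lists was higher in STZ with leptin and 0 were lower. These were Irf9 (0.80, limma adjusted p = 0.0323), Ptpn6 (1.79, limma adjusted p = 0.00322), Il6st (2.96, limma adjusted p = 0.000123) and Lcn2 (at least 72.8-fold, limma adjusted p = 0.00190). The Lcn2 bound was 24.9-fold with the authors' values, 24.7-fold with no background correction, 30.0-fold with normexp and 101-fold without leptin replicate 7. Irf9 lost its call without either saline replicate or any leptin replicate, and Ptpn6 without saline replicate 4 (limma adjusted p = 0.0590). The count of STAT3 targets was 3 without STZ replicate 1, and 2 without STZ replicate 2 or leptin replicate 7.

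**Figure D3:**
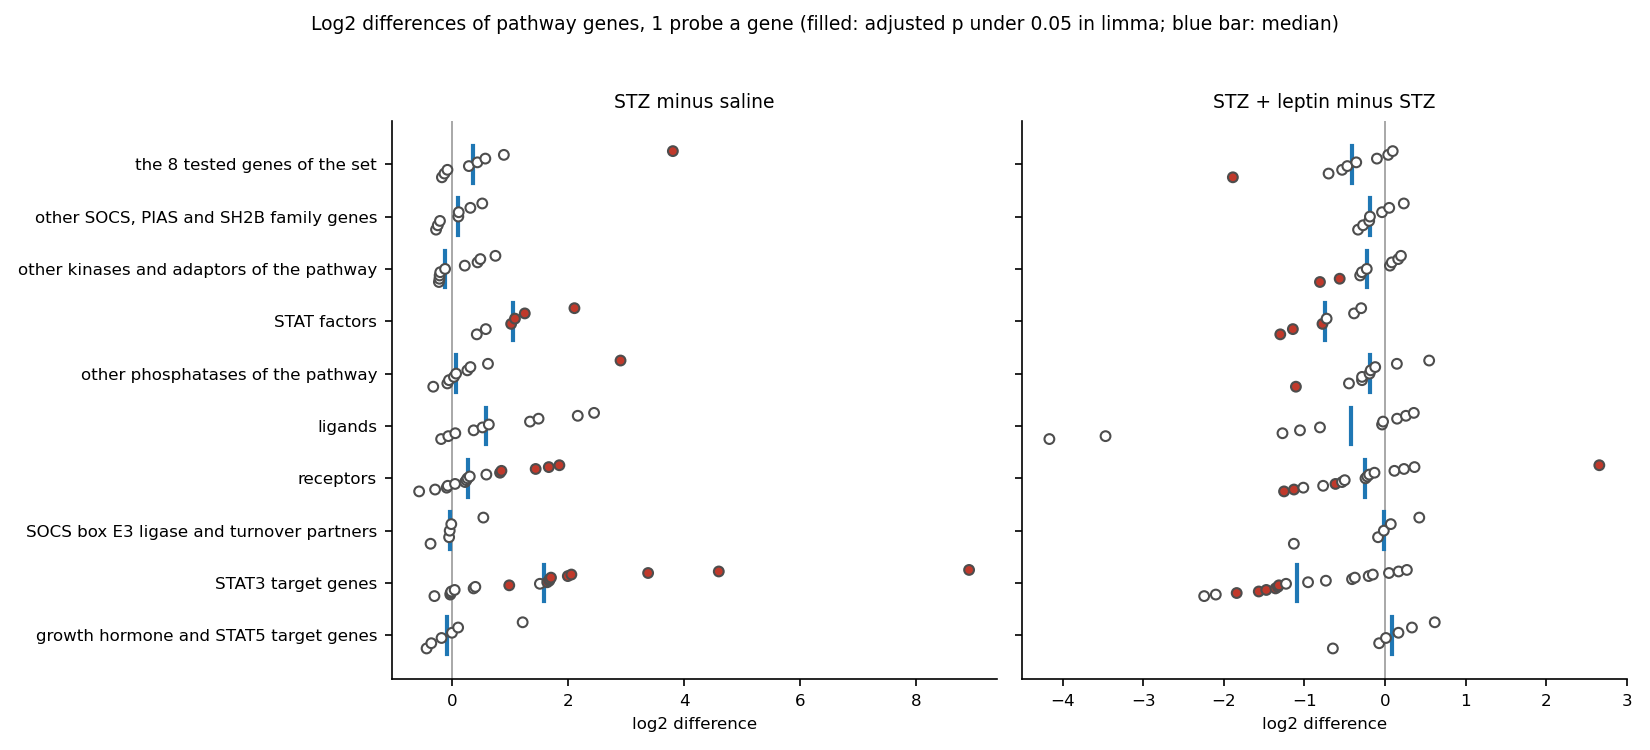
Log2 differences (horizontal axis) of all tested genes of each pathway list, for STZ against saline (left) and leptin against STZ (right), with filled points for genes that passed and a bar at each list's median. STAT factors and STAT3 targets lie to the right for STZ against saline (medians 1.05 and 1.57, or 0.84 and 1.30 with genes undetected in a group at their bound), while the SOCS, PIAS and SH2B relatives have a median of 0.10 (0 with bounds).

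As a description of likeness over the 8 arrays, which share the 3 groups, the genes most like each member were found by Pearson correlation. For Socs3 they were Nrros (0.996), Trex1 (0.995), Cxcl10 (0.991), Phf11d (0.990) and Ly86 (0.989). For Ptpn1 they were Pnpla2 (0.963), Sppl2a, Calu, Vamp3 and Stat3 (0.945), the last a gene of the pathway. Jak2 was most like Gstcd (0.997), Cdc42se1, Sigirr, Plod3 and Gnb1. Cish was most like Bag3 (0.976), Hspg2, Cd82, Slc7a2 and Lima1, and Socs1 most like Sod2 (0.991), Emp3, Ccl6, Trim47 and S100a4. Socs2 went with Clcc1 (0.985), Ntn5, Cibar1, Slc7a6os and Med27, Sh2b1 with Kcnh2 (0.968), Bend3, Abcg4, Carm1 and Itga3, and Pias3 with Mtmr1 (0.989), Rasgef1c, Napb, Thsd1 and Dpysl3. The correlation of the nearest gene lay between 0.963 and 0.997 for all 8 tested members.

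**Figure D4:**
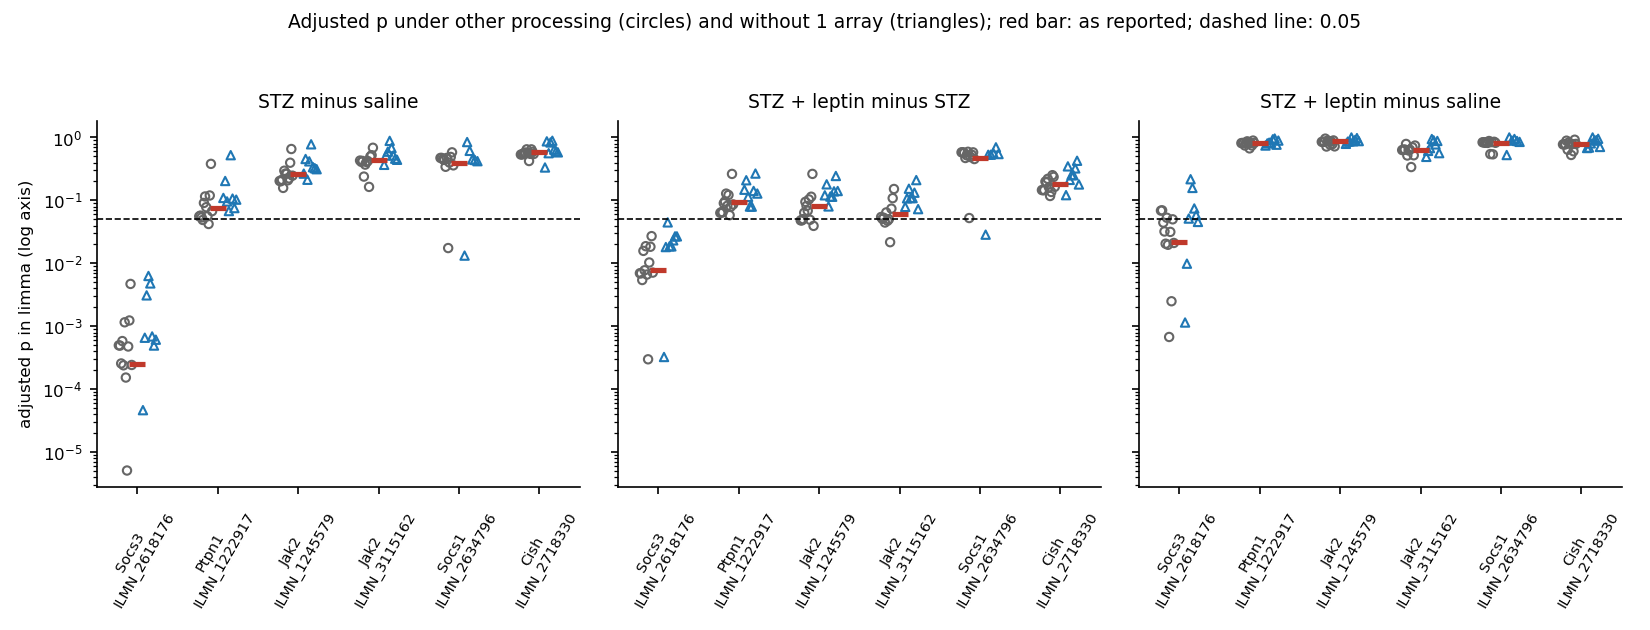
Limma adjusted p (vertical log axis) of Socs3, Ptpn1, Jak2, Socs1 and Cish probes in the comparisons, under other processing (circles), without 1 array (triangles) and as reported (red bars), with a dashed line at 0.05. All Socs3 points for STZ against saline (at most 0.00632) and for leptin against STZ (at most 0.0448) lie below the line, and those for leptin against saline lie on both sides of it.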

How the data were processed

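RNA of 8 hypothalamus samples was measured on bead arrays. The deposited raw table gives each probe an intensity (linear scale) and a detection p-value on every array, per the file headers. The authors' processed table holds log2 values with a median of 6.90 in each column, made with software that the labels do not name. Intensities were background-corrected and quantile-normalized by the neqc function (limma 3.58.1, R 4.3.3) with an offset of 16. Of 25697 probes, 15494 were kept, those detected (p-value below 0.05) on 2 or more arrays. Group means were fitted with lmFit and eBayes on all 8 arrays, and p-values adjusted by Benjamini-Hochberg over the kept probes at a threshold of 0.05. The fit was tested on simulated data. The number of arrays limits the precision.

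Symbols came from the platform's probe table (1 symbol for 23978 probes, none for 1719). Levels of different probes are not compared, and a gene in a list is its brightest kept probe. Where all arrays of the dimmer group were undetected, each was set to the lowest detected signal of its array, or its own value if higher, to give a bound. Every member probe was named. Per list and comparison, at most 4 genes that passed with the largest differences were named, or the 2 with the lowest p, and per member the 5 most correlated genes. The members and lists were chosen with earlier results of these data known. Replicate numbers in the descriptions were checked for pairing: deviations from group means of same-numbered arrays correlated between -0.22 and 0.09. The arrays were not treated as pairs, although so few arrays with a repeated number cannot decide this. A fit with the numbers as a block is among the alternatives. Alternatives were other background corrections, normalizations, filters and fits, and each array left out.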

Additional observations from a re-analysis of the deposited data

How the results depend on the processing

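Socs3 kept its calls for STZ against saline and for leptin against STZ under all 12 processing alternatives and all 8 left-out arrays. Its difference between leptin and saline missed the threshold with the authors' processed values (1.37), with no background correction (1.37), with no detection filter (1.91) and with the replicate block (2.03), and lay between 1.84 and 1.99 with single arrays left out. The causes of these losses were not tested.

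The number of member probes that passed in STZ against saline was 2 with cyclic loess, array weights or a robust trend (1 to 2 with single arrays left out). In leptin against STZ it was 2 with the authors' values, no background correction, cyclic loess, no detection filter, array weights, a robust trend or all probes of a gene averaged (1 to 2 with arrays left out). In leptin against saline it was 0 with the authors' values, no background correction, no detection filter or the replicate block (0 to 1 with arrays left out). The probe gained was Ptpn1 for STZ against saline (limma adjusted p = 0.0490 with cyclic loess and 0.0423 with a robust trend), Socs1 with array weights (limma adjusted p = 0.0175), and a Jak2 probe for leptin against STZ (limma adjusted p between 0.0217 and 0.0493).

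Over all probes, STZ against saline gave 332 calls with a detection limit of 0.01 on all arrays, 1659 with array weights, 336 with the replicate block and 277 to 1032 with arrays left out. Leptin against STZ gave 552, 1859, 474 and 484 to 1234, and leptin against saline 183 with the stricter limit, 714 with array weights and 111 to 426 with arrays left out. Array weights moved the share of higher calls in STZ against saline from 92.8% to 64.3%. Deviations of same-numbered arrays correlated between -0.22 and 0.09. The 2 saline arrays deviate as mirror images and 2 STZ arrays share the number 1, so this check cannot decide whether the block is warranted.

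Differences that had not passed, not all of them near 0, changed sign in 18 cases, none of them past the threshold. With array weights these were Sh2b1 (0.024) and Socs2 (-0.069) for leptin against STZ, and Socs2 for STZ against saline (0.039) and leptin against saline (-0.030). Median centring turned Socs2 for leptin against saline (-0.056) and the replicate block Pias3 for STZ against saline (0.055). With arrays left out, Jak2 for leptin against saline ranged from -0.244 to 0.042, Ptpn1 from -0.13 to 0.50, a Pias3 probe from -0.45 to 0.27 and Socs2 from -0.061 to 0.10. For leptin against STZ Pias3 ranged from -0.043 to 0.131 and Sh2b1 from -0.049 to 0.231, and for STZ against saline 2 Pias3 probes ranged from -0.207 to 0.0043 and from -0.67 to 0.050. Socs1 was not kept without STZ replicate 2 or 3 or under the stricter limit.

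Of 31 calls of named pathway genes, under the same alternatives chosen for them after seeing the data, 10 were kept under every alternative and 0 changed sign. The other 21 were lost under at least 1, and 11 of 28 differences that had not passed gained a call under at least 1. With 2 saline arrays and dim probes near background, small differences in Socs1, Ptpn2 and the third Pias3 probe could not be measured.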
